A study of Mus musculus with 8 samples.

Results

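D2 against B6-13D2 compares a DBA/2J genome with a C57BL/6J genome while holding the D2 allele of 1 segment of chromosome 13 constant. The measurement is H3K27ac HiChIP in mouse embryonic stem cells. The members are the loops that reached 5 counts in 2 or more of the 8 libraries of the series, 44706 of 415681 loops, and the anchors (loop ends) whose loops summed to 10 counts or more in 2 or more libraries, 21211 of 30044 anchors. The minimum did not use the direction or size of any difference, but a feature high in 1 line alone could meet it, and the comparison was chosen with earlier results of these data known.

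D2 is the embryonic stem cell line D2 5-5 of the inbred strain DBA/2J. B6-13D2 is the line QJ 6-1, of the congenic strain B6.D2-(rs30079041-rs51756099)/Bakr, in which the rest of the genome is that of C57BL/6J. The other 2 lines serve here as the same background comparison with the B6 allele of the segment: B6 is the C57BL/6J line B6 5-1, and D2-13B6 is the line XE 2-4, with a DBA/2J genome and a B6 segment. The labels give 2 different end markers for the segment of D2-13B6. All lines were grown in serum medium with the cytokine LIF, the MEK inhibitor PD0325901 at 1 µM and the GSK3 inhibitor CHIR99021 at 3 µM. Each genotype is 1 cell line, and its 2 libraries are technical replicates from the same line, so every p-value below measures the spread between libraries of a line, not between separately derived lines.

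HiChIP ligates DNA ends that lie near each other in the nucleus and then immunoprecipitates chromatin, here with an antibody to histone H3 acetylated at lysine 27. That mark sits on active promoters and enhancers, so a loop count rises when an acetylated site contacts another site more often and also when the site itself carries more of the mark. Strains of mice differ in regulatory sequence across the genome, and inbred embryonic stem cells of C57BL/6J and DBA/2J are known to differ in chromatin state at many sites.

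The D2 libraries held 831446 and 768078 counts, and the B6-13D2 libraries 982278 and 1357176, within a range of 737955 to 1425304 over the 8 libraries. The median tested loop had 6 and 5 counts in the D2 libraries, and 7 and 9 in the B6-13D2 libraries. Levels below are CPM, a feature's counts relative to the library's tested total on edgeR's CPM scale with TMM factors. Replicates correlated across tested anchors with Pearson's r = 0.958 in D2 and 0.967 in B6-13D2, where anchors are not independent replicates. Anchors of all 10 embryonic stem cell marker genes passed the filter, against 1 of 10 fibroblast or feeder markers, 1 of 6 primitive endoderm markers and 0 of 5 trophoblast markers. The summed CPM of the stem cell markers was 2537 and 2522 in D2, and 2415 and 2684 in B6-13D2, so the lines overlapped.

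Promoters that differed between the backgrounds are named first. The 4 below, 2 on each side with the smallest adjusted p among those matched, are shown as the mouse reference (C57BL/6J) sequence from 250 bases before to 50 after the RefSeq transcript start, so that a reader can see the sites under study. Of the 16 promoter anchors named by rule, 10 had such a RefSeq entry (GRCm38.p6). Capitals mark matches on either strand to the GC box letters GGGCGG, the CCAAT box or the TATA box letters TATAAA, which occur in 35.7%, 37.4% and 13.6% of the 32851 promoters of that table. The windows are chr1:64956775-64957074 (minus strand) for Plekhm3, chr1:63445641-63445940 (plus strand) for Adam23, chr13:23488808-23489107 (minus strand) for Btn2a2 and chr6:54972563-54972862 (minus strand) for Nod1.
Plekhm3: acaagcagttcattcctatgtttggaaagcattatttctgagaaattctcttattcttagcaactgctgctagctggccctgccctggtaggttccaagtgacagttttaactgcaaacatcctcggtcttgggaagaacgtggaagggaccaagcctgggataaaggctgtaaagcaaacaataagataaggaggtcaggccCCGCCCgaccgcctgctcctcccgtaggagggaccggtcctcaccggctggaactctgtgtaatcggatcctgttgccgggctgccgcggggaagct
Adam23: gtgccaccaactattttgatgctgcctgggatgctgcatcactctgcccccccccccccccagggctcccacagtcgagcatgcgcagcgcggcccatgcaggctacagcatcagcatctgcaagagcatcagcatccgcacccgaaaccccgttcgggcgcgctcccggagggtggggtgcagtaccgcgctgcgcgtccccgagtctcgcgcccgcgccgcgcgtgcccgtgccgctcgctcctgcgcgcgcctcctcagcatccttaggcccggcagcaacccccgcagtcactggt
Btn2a2: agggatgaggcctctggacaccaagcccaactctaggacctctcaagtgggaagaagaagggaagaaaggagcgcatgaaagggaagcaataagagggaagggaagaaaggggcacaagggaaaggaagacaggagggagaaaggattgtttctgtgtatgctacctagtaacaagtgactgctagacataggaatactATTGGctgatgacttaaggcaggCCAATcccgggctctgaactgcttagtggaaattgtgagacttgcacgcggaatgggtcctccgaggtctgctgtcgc
Nod1: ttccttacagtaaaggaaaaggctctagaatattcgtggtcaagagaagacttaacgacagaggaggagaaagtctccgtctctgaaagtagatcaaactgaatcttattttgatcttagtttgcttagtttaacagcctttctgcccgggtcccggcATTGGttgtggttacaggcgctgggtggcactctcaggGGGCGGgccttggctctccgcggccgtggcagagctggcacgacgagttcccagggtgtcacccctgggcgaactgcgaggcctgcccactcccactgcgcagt
The Plekhm3 window holds 1 GC box match and no CCAAT or TATAAA match. The Adam23 window is 70.0% GC with 31 CG dinucleotides, against a median of 52.7% and 7 over the table, and holds none of the 3 motifs. The Btn2a2 window holds 2 CCAAT matches, 1 on each strand, and the Nod1 window 1 CCAAT and 1 GC box match. These are matches to letters in the reference strain, and the DBA/2J sequence was not used here.

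Over all tested anchors, 3034 (14.3%) were called, that is, passed a false discovery rate of 0.05 in the quasi-likelihood test of edgeR with Benjamini-Hochberg adjustment over every tested anchor. Of these, 1267 (5.97%) were higher and 1767 (8.33%) lower in D2. The higher anchors had a median log2 fold change of 1.07, and 154 of them changed at least 4-fold. The lower anchors had a median of -0.70, and 43 of them changed at least 4-fold. Among single loops, 1597 (3.57%) were called, 665 (1.49%) higher and 932 (2.08%) lower, and 1453 of the 1597 touched an anchor called in the same direction. The split between higher and lower rests on the scaling: with library totals in place of TMM factors, which moved the median log2 fold change of all anchors to 0.12, 1847 anchors were called higher and 1203 lower, and 833 loops higher and 689 lower. With a library left out, its line has 1 library, which is assumed to vary like those of the other lines, and the fit has fewer libraries. Anchors called fell to 1472 without D2 replicate 1, 1724 without D2 replicate 2 and 1908 without B6-13D2 replicate 2, and loops to 723, 840 and 804. DESeq2 called 1134 anchors and 429 loops, but gave no adjusted p to 3290 of the tested anchors and 26869 of the tested loops.

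Of the 8080 tested anchors that hold a coding gene's start, 953 (11.8%) were called, 350 (4.33%) higher and 603 (7.46%) lower in D2. Anchors without a coding start were called in 15.8% of 13131 cases, with 917 (6.98%) higher and 1164 (8.86%) lower. The 16 promoter anchors and the loops named by rule have libraries that do not overlap between the lines, because that was a condition for naming them. Among the promoter anchors higher in D2, that of Plekhm3, which encodes a pleckstrin homology domain protein, stood at chr1:64945001-64985000. It measured 351 and 371 CPM in D2 and 123 and 107 CPM in B6-13D2. The D2 libraries were 3.15-fold higher (log2 fold change 1.66, SE 0.12, edgeR adjusted p = 1.66e-20). Over 15 alternative fits, treated in the closing section, the log2 fold change ran from 0.83 to 1.84. The anchor of Adam23, a membrane protein of the ADAM family, lay on the same chromosome at chr1:63430001-63460000 and was 3.96-fold higher in D2, with means of 150 ± 13.6 CPM and 38.2 ± 6.46 CPM (SD, n = 2 each).

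On chromosome 7, the anchor at chr7:15880001-15910000 holds starts of Crxos, a homeobox gene of the preimplantation embryo. Its D2 libraries measured 148 and 179 CPM and its B6-13D2 libraries 41.5 and 44.9 CPM. The next anchor upstream, at Obox6, another homeobox gene of early embryos, measured 79.3 and 81.3 CPM against 31.5 and 30.4 CPM. Both neighbours were thus higher in both D2 libraries, and the loop joining them held 56 and 42 counts in D2 and 21 and 28 in B6-13D2 (log2 fold change 1.52, SE 0.26, edgeR adjusted p = 1.81e-06). Crxos and Obox genes belong to families of similar copies, so counts at them may be shared between copies.

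The remaining promoter anchors higher in D2 were those of Samd9l, Hunk, Plce1, Klf12 and Pramef17. Samd9l is an interferon-induced gene of antiviral defence, and its anchor at chr6:3380001-3400000 measured 61.0 and 92.7 CPM in D2 against 16.99 and 9.81 CPM in B6-13D2. The difference lay in contacts with other sites, since its loop to chr6:3420001-3435000 held 52 and 75 counts in D2 and 6 and 5 in B6-13D2 (log2 fold change 4.03, SE 0.34, edgeR adjusted p = 2.50e-28), whereas the loop inside the anchor had a log2 fold change of -0.10 (SE 0.56, adjusted p = 0.963). Klf12, a Krüppel-like transcription repressor, measured 54.2 and 50.1 CPM in D2 and 12.6 and 11.2 CPM in B6-13D2 at chr14:100280001-100290000. Plce1, a phospholipase C, measured 49.5 and 66.8 CPM against 15.1 and 13.6 CPM.

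Pramef17, of a gene family with many near-identical copies, stood at 30.5 and 27.3 CPM in D2 and at 4.40 and 2.34 CPM in B6-13D2. Its single tested loop ran 340 kb to an anchor at Gm13128, with 39 and 32 counts in D2 and 2 and 0 in B6-13D2. Repeats masked in the reference cover 61.1% of the Pramef17 anchor, against a median of 26.6% over all tested anchors, and reads could be split among copies there.

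Among the promoter anchors lower in D2, that of Btn2a2, a butyrophilin of immune cell regulation, lay at chr13:23485001-23520000, outside the 55 to 75 Mb stretch treated further on. It measured 86.1 and 97.2 CPM in D2 and 474 and 451 CPM in B6-13D2. D2 was 5.05-fold lower, and the log2 fold change was -2.34 (SE 0.13, edgeR adjusted p = 1.61e-28). The loss held inside the anchor and at distance. The loop inside the anchor fell from 222 and 301 counts in B6-13D2 to 8 and 19 in D2, and the 65-kb loop to the Abt1 promoter, a basal transcription activator, from 263 and 352 to 52 and 52 (log2 fold change -2.03, SE 0.17, edgeR adjusted p = 1.63e-29).

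Nod1, an intracellular receptor for bacterial peptidoglycan, had its anchor at chr6:54935001-54975000. The D2 libraries measured 51.5 and 55.4 CPM and the B6-13D2 libraries 296 and 320 CPM, a 5.77-fold difference (log2 fold change -2.53, SE 0.14, edgeR adjusted p = 5.04e-28). Of its 8 tested loops, 5 were called lower in D2 and none higher, and all 8 had the lower sign. The loop inside the anchor made up 32.9% and 45.2% of the anchor's counts in D2 and 65.1% and 64.2% in B6-13D2.

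Trim12a, of the TRIM family of antiviral restriction factors, had few counts in D2. Its promoter anchor at chr7:104310001-104320000 measured 2.03 and 2.28 CPM in D2 and 49.1 and 44.4 CPM in B6-13D2. The 15-kb loop within the gene held 0 and 0 counts in D2 and 43 and 51 in B6-13D2, which is at least 21.7-fold lower when D2 is set at 3 counts over both libraries. In the other pair of lines the same loop held 1 and 1 counts in D2-13B6 and 40 and 32 in B6. Trim12 genes are near-identical copies, so counts may be split between them. How reads with DBA/2J variants were placed on the C57BL/6J assembly is not given in the sources used here, and its part in this and the other low counts in D2 was not tested.

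Scaf4 and Hunk are neighbours on chromosome 16 that moved in opposite directions. Scaf4 binds RNA polymerase II and limits the use of early polyadenylation sites, and its anchor at chr16:90280001-90315000 measured 48.8 and 59.2 CPM in D2 against 189 and 187 CPM in B6-13D2. Hunk, a protein kinase, had 243 and 216 CPM in D2 against 93.1 and 98.6 CPM at chr16:90400001-90445000. The log2 fold changes were -1.80 (SE 0.15) and 1.26 (SE 0.13), with edgeR adjusted p = 5.32e-18 and 5.24e-13. Over 15 alternative fits they ran from -1.94 to -0.79 and from 1.16 to 1.42. The loop inside the Scaf4 anchor fell to 22 and 21 counts in D2 from 187 and 268, and its loop to the anchor of Sod1, the copper-zinc superoxide dismutase, to 5 and 4 from 24 and 29.

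The last 4 of the lower promoter anchors were those of Stard3nl, Gm21915 with Gm35371, Olfr94 with Ubd, and Nnt with Paip1. Stard3nl, which tethers endosomes to the endoplasmic reticulum, measured 18.98 and 22.8 CPM in D2 and 109 and 93.9 CPM in B6-13D2. The Olfr94 and Ubd anchor, which holds an olfactory receptor and a ubiquitin-like modifier, measured 59.6 and 63.0 CPM against 193 and 171 CPM. At Gm21915 and Gm35371, 2 predicted genes, the values were 146 and 150 CPM against 352 and 394 CPM.

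**Figure D1:**
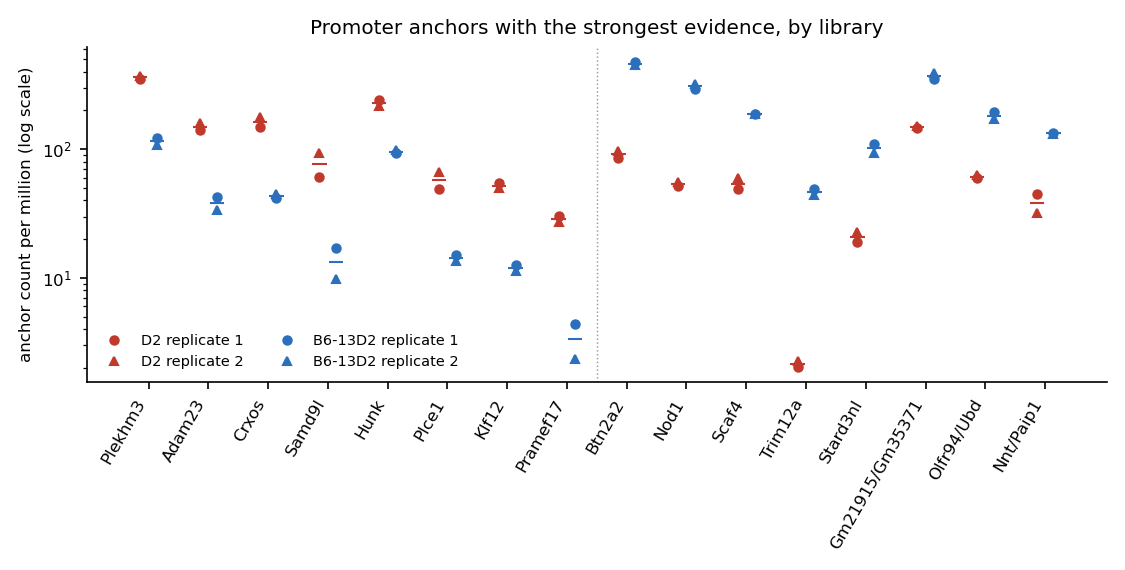
CPM (vertical axis, log scale) of the 16 promoter anchors named by rule, for each library of D2 (red) and B6-13D2 (blue), with circles and triangles for replicates 1 and 2 and a short bar at each mean. The 8 anchors left of the dotted line are higher in both D2 libraries, such as Plekhm3 at 351 and 371 CPM against 123 and 107, and the 8 to its right are lower, Trim12a reaching 2.03 and 2.28 CPM in D2.

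Of the single loops with the smallest adjusted p, those higher in D2 are given first. At chr6:12865001-12870000, outside any coding gene, the loop to a site 10 kb away held 189 and 211 counts in D2 and 1 and 2 in B6-13D2. Per unit of depth D2 was 192-fold higher (exact 95% interval 65.3 to 936, covering counting error only), and D2-13B6 had 233 and 226 counts against 1 and 2 in B6. Within Immp2l, a mitochondrial inner membrane protease gene on chromosome 12, the loop from chr12:41375001-41380000 held 150 and 171 counts in D2 and 11 and 4 in B6-13D2 (log2 fold change 4.92, SE 0.26, edgeR adjusted p = 1.02e-72). Inside the anchor at chr17:89930001-89945000, D2 held 78 and 79 counts and B6-13D2 held 0 and 0, at least 75.5-fold higher with B6-13D2 set at 3 counts over both libraries. The sites lie on 3 different chromosomes.

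At chr10:8535001-8545000 a loop 17.5 kb long held 98 and 118 counts in D2 against 3 and 3. A loop at chr13:19950001-19955000 held 142 and 153 against 23 and 23. The loops inside the promoter anchors of Clcn3, a chloride and proton exchanger, and Ffar2, a receptor for short-chain fatty acids, went the other way, from 355 and 437 counts in B6-13D2 to 107 and 103 in D2 and from 352 and 482 to 112 and 120. Their log2 fold changes were -1.39 (SE 0.15) and -1.31 (SE 0.14). On chromosome Y, the loop inside the anchor at Gm47283 held 2 and 0 counts in D2 against 80 and 80, or 55.5-fold lower in D2 per unit of depth (exact 95% interval 15.1 to 462). How reads were placed there is not given in the sources used here.

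The share of loops called differed by kind and span. Of 4686 tested loops inside 1 anchor, 138 were higher and 327 lower in D2 (9.92%), against 3.57% of all tested loops. Promoter to promoter loops were called in 1.35% of 12237, promoter to distal loops in 2.81% of 17512 and distal to distal loops in 4.62% of 10271. By span, the share fell from 5.14% of loops of 5 to 50 kb to 0.978% of those over 500 kb. The median count summed over the D2 and B6-13D2 libraries was 84 for loops inside 1 anchor and 16 for those over 500 kb. The part of that depth in the shares was not tested. D2-13B6 against B6 gave 16.1% inside 1 anchor and 3.51% between promoters.

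**Figure D2:**
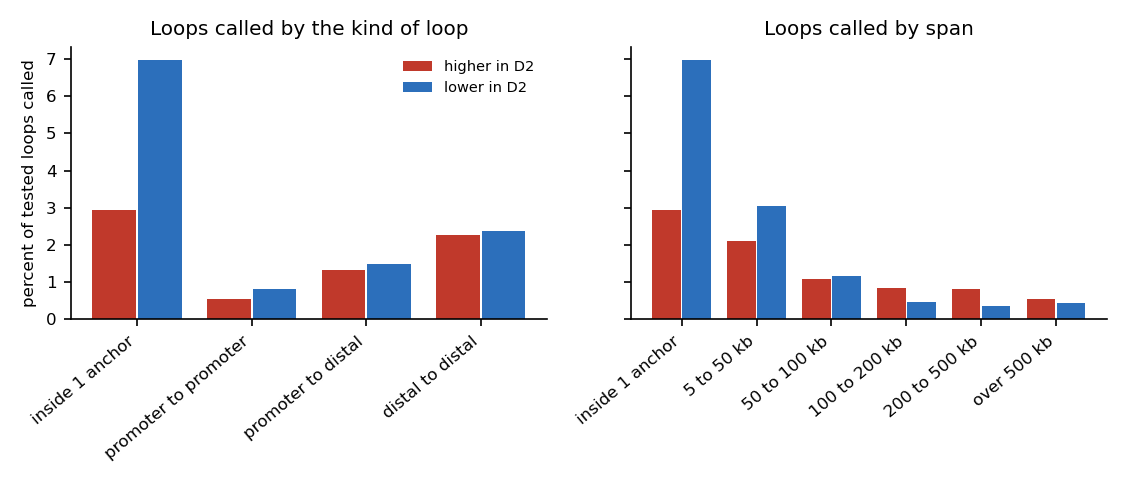
Percent of tested loops called higher (red) or lower (blue) in D2 against B6-13D2, by the kind of loop on the left and by span on the right. Loops inside 1 anchor have the largest share, with 327 of 4686 lower and 138 higher, and loops over 500 kb the smallest share by span, 0.978% in all.

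Contacts over 100 kb took 30.6% and 29.1% of all counts in the D2 libraries and 26.8% and 25.7% in the B6-13D2 libraries. The libraries did not overlap, and the means of 29.9% ± 1.11 and 26.2% ± 0.725 (SD, n = 2 each) differed by 3.62 percentage points. An exact two-sided permutation test gave p = 0.333, the smallest that 2 against 2 libraries allow. Loops inside 1 anchor took 30.2% ± 0.933 in D2 and 33.1% ± 0.482 in B6-13D2. The second pair went the other way in both shares: contacts over 100 kb took 27.01% and 26.93% in D2-13B6 against 27.9% and 31.2% in B6, and loops inside 1 anchor 32.9% and 33.1% against 31.3% and 29.3%. In both pairs the line with more long contacts, D2 and B6, was also the shallower one, with B6 at 952040 and 737955 counts and D2-13B6 at 1395052 and 1425304, and the part of depth in this was not tested.

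The same background difference could be read a second time, with the B6 allele of the segment, in D2-13B6 against B6, which shares no library with D2 against B6-13D2. There, 4215 anchors (19.9%) were called, 10.5% of all tested being higher and 9.34% lower in D2-13B6, and 2661 loops (5.95%), 3.29% higher and 2.66% lower. Of the 3034 anchors called in D2 against B6-13D2, 2524 (83.2%) had the same sign in D2-13B6 against B6, compared with 61.6% of all tested anchors. Of the 197 changed at least 4-fold, 186 had the same sign, 138 were called in both and none was called in opposite directions. Among all called anchors 1364 were called the same way and 78 the opposite way. For loops, 1430 of 1597 (89.5%) had the same sign, against 59.0% of all tested loops. The D2-13B6 and B6 libraries did not overlap, in the same direction, at 2105 of the 3034 called anchors (69.4%), against 38.4% of all tested anchors. In D2-13B6 chromosome 11 held 13.90% and 13.96% of the counts, against 10.0% to 10.6% in the other 6 libraries, and 40.1% of its anchors were called there against 12.6% in D2 against B6-13D2. With chromosome 11 left out, 84.2% of called anchors had the same sign.

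**Figure D3:**
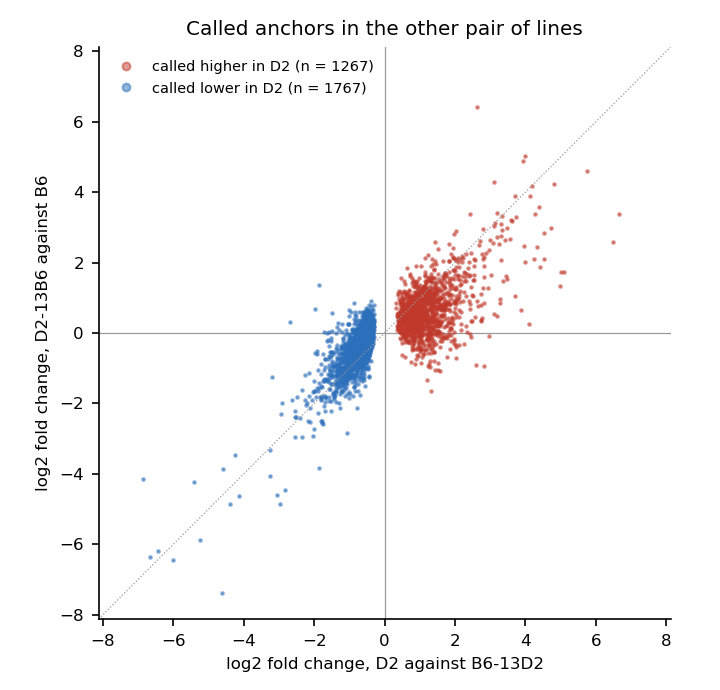
Each point is an anchor called in D2 against B6-13D2, with its log2 fold change there (horizontal) and in D2-13B6 against B6 (vertical), red for higher and blue for lower in D2, and a dotted line at equal values. Of the 3034 points, 2524 lie at the lower left or upper right, with the same sign in both pairs.

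The 16 promoter anchors named above were all called with the same sign in the second pair. Plekhm3 measured 470 and 460 CPM in D2-13B6 and 115 and 111 CPM in B6. Nod1 measured 46.3 and 46.5 CPM against 255.2 and 233.2 CPM, and Scaf4 49.9 and 46.0 CPM against 177 and 159 CPM. For these the D2 backgrounds lay on one side and the B6 backgrounds on the other, whichever allele of the segment they carried. The difference between the pairs was tested as an interaction over all anchors, and 1025 anchors (4.83%) were called, 222 (1.05%) with a higher and 803 (3.79%) with a lower log2 fold change in D2 against B6-13D2 than in the second pair. The anchors of Hunk and Btn2a2 were among them, with differences in the second pair of 0.49 and -1.61 on the log2 scale. Among loops 271 (0.606%) were called, 24 (0.0537%) higher and 247 (0.552%) lower. These splits rest on the scaling. With library totals, which moved the median interaction of all anchors to 0.25 on the log2 scale, 533 anchors were higher and 273 lower, and with the trend on abundance removed 195 and 177. The loops gave 48 higher and 94 lower with library totals, and 45 and 46 with the trend removed. Chromosome 11, which held more of the counts in D2-13B6, is included in these counts. With TMM factors taken within each chromosome, 176 anchors were higher and 592 lower, and 21 loops higher and 189 lower. The part of chromosome 11 in the splits was not tested.

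Histone genes encode the proteins that package DNA. Of 14 tested anchors that hold the starts of 64 histone genes, edgeR and DESeq2 each called 0 in D2 against B6-13D2 (2 had an unadjusted p under 0.05), whereas edgeR called all 14 in D2-13B6 against B6 and 11 of 14 in the interaction, against 19.9% and 4.83% of all anchors. Among the histone anchors named by rule, those at Hist3h2a and Hist1h2ak were called higher in D2 with library totals in place of TMM factors (adjusted p = 0.0320 and 0.0251). With the trend on abundance removed Hist1h2ak was (0.00942). Refits of the other histone anchors are not given here. The anchor at chr13:23530001-23600000, in the main histone cluster, measured 462 and 542 CPM in D2 and 512 and 513 CPM in B6-13D2, and 588 and 811 CPM in D2-13B6 against 196 and 277 CPM in B6. The lines of D2 against B6-13D2 overlapped, while those of the second pair did not. Its interaction was -1.61 on the log2 scale (SE 0.17, edgeR adjusted p = 2.55e-11), and the anchors at chr13:23735001-23770000 and chr3:96235001-96280000 gave -2.01 and -1.27. Histone genes are near-identical copies, and counts may be split among them.

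Chromosome 13 from 55 to 75 Mb is the stretch that earlier results of these data tied to the exchanged segment. The genome positions of the segment's end markers are not given in the sources used here, so its boundaries were not placed, and D2 and B6-13D2 are taken to share an allele over this stretch only from those results. Of 210 tested anchors with their midpoint there, 15 were called in D2 against B6-13D2, or 7.14% (exact 95% binomial interval 4.05 to 11.5, covering counting error only). The share was 13.9% on the rest of chromosome 13 and 14.4% on the other chromosomes. Among loops, 2 of 372 (0.538%) were called, against 4.44% on the rest of that chromosome. In D2-13B6 against B6, 19.5% of the same anchors were called, against 17.6% on the rest of chromosome 13 and 19.96% elsewhere, and 6.72% of the same loops, against 9.53% and 5.86%. Of 89 other windows of 20 Mb with at least 100 tested anchors, 2 had a lower share than 7.14% in D2 against B6-13D2, and their median was 14.1%. In the second pair 56 of the 89 had a lower share than 19.5%, with a median of 17.8%. The other chromosomes and windows include chromosome 11, where 40.1% of anchors were called in the second pair. Without D2 replicate 1 the share was 1.43%, without D2 replicate 2 3.33% and without B6-13D2 replicate 2 1.90%, where 6.94%, 8.13% and 8.995% of all tested anchors were called. The same-sign share was 48.6% of all tested anchors there, and 12 of the 15 called anchors (80.0%), of which 7 were called in both pairs.

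**Figure D4:**
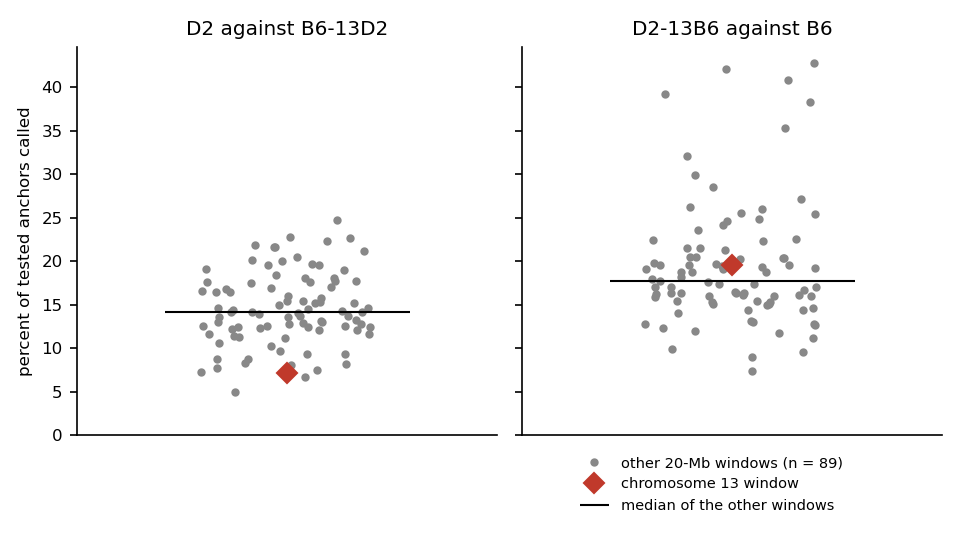
Percent of tested anchors called in each window of 20 Mb, for D2 against B6-13D2 on the left and D2-13B6 against B6 on the right, with grey points for the 89 other windows that hold at least 100 tested anchors (scattered sideways only to be seen), a line at their median and a red diamond for the chromosome 13 window. The diamond lies at 7.14% on the left, where the other windows run from 4.94% to 24.7%, and at 19.5% on the right.

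Of the 15 called anchors of that stretch, 5 were higher and 10 lower in D2. The higher one with the smallest adjusted p, at chr13:62375001-62400000, holds Gm3604, a predicted gene, and measured 50.2 and 61.5 CPM in D2 against 31.5 and 26.2 CPM in B6-13D2. Erap1, a peptidase that trims antigens for class I presentation, measured 15.6 and 18.99 CPM against 6.92 and 7.01 CPM. Lower in D2 were 2 adjacent anchors in 2010111I01Rik, at 110 and 118 CPM against 155 and 202 CPM and at 102 and 98.7 CPM against 123 and 148 CPM, and the anchor of Slc12a7, a potassium and chloride cotransporter, at 62.4 and 67.6 CPM against 84.9 and 98.6 CPM. The calls at Erap1 and Slc12a7 did not hold without D2 replicate 2 (log2 fold change 1.15 and -0.57) or without B6-13D2 replicate 2 (1.30 and -0.39). Slc12a7 also lost its call without D2 replicate 1 (-0.45) and with library totals (edgeR adjusted p = 0.0681). With loops inside 1 anchor left out, its log2 fold change moved from -0.51 to -0.21 (adjusted p = 0.690). Of the 2 anchors in 2010111I01Rik, the first lost its call without B6-13D2 replicate 2 (log2 fold change -0.44). The second lost it without D2 replicate 1 (-0.47), D2 replicate 2 (-0.42) or B6-13D2 replicate 2 (-0.29), and with library totals (adjusted p = 0.0802).

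Anchors that earlier results of these data tied to the segment allele are given next, as a description. The loop inside the Zfp729a anchor, a KRAB zinc finger gene, held 47 and 49 counts in D2 and 57 and 56 in B6-13D2, against 9 and 3 in B6 and 6 and 9 in D2-13B6. Inside the Gm48360 anchor the counts were 2 and 0 in D2 and 0 and 0 in B6-13D2, against 48 and 19 in B6 and 65 and 50 in D2-13B6. At Nlrp4f, of the oocyte NLRP family, they were 47 and 43 against 69 and 92 in the D2 allele lines, with a log2 fold change of -0.31 (SE 0.21, edgeR adjusted p = 0.563). Off chromosome 13, the loop inside the Obox6 anchor held 41 and 45 counts in D2 and 17 and 21 in B6-13D2, against 103 and 71 in B6 and 129 and 129 in D2-13B6. The Obox6 anchor, called in D2 against B6-13D2, was not called in the second pair (log2 fold change 0.32, adjusted p = 0.0541). The loop inside the Aass anchor, the gene of a lysine breakdown enzyme, did not pass the test (94 and 106 counts against 101 and 118, adjusted p = 0.243). The Aass anchor as a whole was called higher in D2, at 97.6 and 112 CPM against 83.0 and 70.6 CPM (log2 fold change 0.46, SE 0.15, edgeR adjusted p = 0.0259), but not without D2 replicate 1 (0.0624), D2 replicate 2 (0.278) or B6-13D2 replicate 2 (0.269). An anchor inside Dnah12, an axonemal dynein gene on chromosome 14, was lower in D2, at 80.7 and 82.0 CPM against 154 and 145 CPM (log2 fold change -0.88, SE 0.14, edgeR adjusted p = 7.05e-07). The anchors at Gpr85 on chromosome 6 and Adam32 on chromosome 8 were not called. Over 15 alternative fits their log2 fold changes ran from -0.43 to -0.05 and from 0.20 to 0.49. Adam32 was called in some of these, such as with library totals (edgeR adjusted p = 0.00504).

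Called anchors also lay side by side. There were 108 runs of at least 4 neighbouring tested anchors called in the same direction with gaps of at most 100 kb, 25 higher and 83 lower in D2, and they held 514 of the 3034 called anchors. The run with the most anchors, 11 over 275 kb at chr7:34400001-34675000, surrounds Kctd15, an inhibitor of neural crest formation. Its summed counts were 2013 and 1735 in D2 and 591 and 843 in B6-13D2, with a median log2 fold change of 1.85, and all 11 anchors were also called higher in D2-13B6 against B6. Further along the chromosome, 8 anchors at chr7:35305001-35470000 over Gpatch1, Cep89, Faap24, Rhpn2 and Slc7a9 were lower, with 605 and 563 summed counts in D2 and 1278 and 2002 in B6-13D2. Of those 8, 7 had the same sign and 3 were called in the second pair, where their median log2 fold change was -0.37. The Klf12 promoter belongs to a run of 6 anchors with a median log2 fold change of 2.46, at 361 and 322 counts against 102 and 121. In 76 of the 108 runs every anchor had the same sign in the second pair, and in 4 none had, among them runs at Mga, Ncor1 and Npepps. Of these 4 runs, 3 lie on chromosome 11, which held more of the counts in D2-13B6, and the part of that was not tested.

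Of 10 genes known for variants between C57BL/6J and DBA/2J, 4 had a tested anchor. Glo1, glyoxalase 1, which lies in a segment known to be duplicated in DBA/2J, measured 319 and 327 CPM in D2 and 164 and 197 CPM in B6-13D2 (log2 fold change 0.83, SE 0.12, edgeR adjusted p = 3.99e-08). In the second pair it measured 388 and 377 CPM against 148 and 127 CPM. Chosen after its values were seen, the stretch from Btbd9 to Glp1r around it held 11 tested anchors, of which 4 were higher, where 5.97% of all tested anchors were, and 0 lower. Of the other 7, 3 had a negative log2 fold change. Those 4 were consecutive but for 1 anchor, namely one inside Btbd9 (log2 fold change 1.06), Glo1, Dnah8 (0.86) and Glp1r (1.64), and of the 6 tested anchors within 300 kb on either side, edgeR and DESeq2 called 0 and 0 had an unadjusted p under 0.05. The Glp1r call did not hold without D2 replicate 1 (adjusted p = 0.224), and Glp1r was not called in the second pair (adjusted p = 0.237).

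Nnt, nicotinamide nucleotide transhydrogenase, carries a known deletion in C57BL/6J. Its anchor, shared with the start of Paip1 at chr13:119405001-119435000 measured 44.7 and 31.9 CPM in D2 and 135 and 131 CPM in B6-13D2 (log2 fold change -1.78, SE 0.16, edgeR adjusted p = 1.96e-15). The loop inside the anchor held 31 and 24 counts against 149 and 184. The second pair gave 32.4 and 30.2 CPM against 93.4 and 88.4 CPM. Gpnmb and Myo5a did not pass the test (adjusted p = 0.110 and 0.157).

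Pluripotency genes were called at a share near that of all anchors. Of 24 core and naive factors, all with a tested anchor, 1 was higher and 2 lower in D2, 12.5% against 14.3% of all tested anchors. Tested anchors with a coding start, the nearer comparison for the gene lists, were called in 11.8% of cases, 4.33% higher and 7.46% lower. The median size of log2 fold change was 0.19 for the 24 factors against 0.31 over all tested anchors, and the part of depth in that was not tested. An unadjusted p under 0.05 was reached by 8 of the 24, against 26.5% of all tested anchors, and 7 were called in the second pair, against 19.9%. DESeq2, which called 5.35% of all tested anchors, called 0 of the pluripotency, LIF and STAT3, formative and imprinted anchors described here. It called 1 each of the Nodal and BMP and the H2 anchors, 2 each of the heterochromatin, cohesin and ribosomal protein anchors, and 20 of the zinc finger anchors. Tbx3, a naive state regulator, measured 230 and 270 CPM in D2 and 185 and 199 CPM in B6-13D2. Sall4, a zinc finger regulator of self-renewal, measured 282 and 280 CPM against 340 and 384 CPM, and Pou5f1, which encodes Oct4, 385 and 393 CPM against 440 and 532 CPM. None of the 3 calls held without B6-13D2 replicate 2, where the log2 fold changes were 0.43, -0.28 and -0.18. All 3 were also lost with loops inside 1 anchor left out (edgeR adjusted p = 0.0616, 0.0675 and 0.673). The Pou5f1 call was lost with the replicate number as a block too (adjusted p = 0.0762). With library totals in place of TMM factors Sall4 and Pou5f1 lost theirs as well (0.0846 and 0.132). Sox2 and Nanog had log2 fold changes of 0.19 (SE 0.12) and -0.03 (SE 0.11).

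Of 12 tested anchors of LIF and STAT3 signalling, 1 was called (8.33%, against 14.3% of all tested anchors), that of the kinase gene and STAT3 target Pim1, at 545 and 629 CPM in D2 against 764 and 912 CPM in B6-13D2. That call did not hold without D2 replicate 1 (log2 fold change -0.42). It was also lost with loops inside 1 anchor left out, where the log2 fold change moved from -0.52 to -0.20 (edgeR adjusted p = 0.280). Among 6 formative and early lineage genes, 2 were higher, where 5.97% of all tested anchors were: Lef1, a partner of beta-catenin, at 23.0 and 38.7 CPM against 13.2 and 14.5 CPM, and Dnmt3l, a cofactor of DNA methylation, at 59.0 and 52.4 CPM against 32.7 and 34.6 CPM. Of 12 Nodal and BMP genes, 1 was called (8.33%), the ligand gene Bmp4, at 41.3 and 37.2 CPM in D2 against 13.8 and 15.4 CPM (log2 fold change 1.41, SE 0.24, edgeR adjusted p = 3.59e-06), and Nodal was not (adjusted p = 0.148). Lef1 lost its call without D2 replicate 2 (adjusted p = 0.206) and Dnmt3l without D2 replicate 1 (0.106).

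Of 28 heterochromatin and silencing genes, 3 were called (10.7%, against 14.3% of all tested anchors). Ehmt1, a histone H3 lysine 9 methyltransferase, was higher at 51.5 and 71.4 CPM in D2 against 36.5 and 35.5 CPM, while Daxx, a chaperone of histone H3.3, and Cbx5, a heterochromatin protein, were lower, with log2 fold changes of -0.42 and -0.33. Of 20 cohesin, CTCF and condensin genes, 3 were lower (15.0%, against 8.33% of all tested anchors), among them Wapl, which releases cohesin, at 196 and 226 CPM against 320 and 305 CPM, and Rad21, a cohesin subunit. Wapl had the clearest difference (log2 fold change -0.57, SE 0.12, edgeR adjusted p = 0.000129). Rad21 lost its call with library totals in place of TMM factors (adjusted p = 0.141) and with the replicate number as a block (0.0695). It also lost its call without each library in turn (log2 fold change -0.39 to -0.26). Without D2 replicate 1 the calls of Daxx and Cbx5 did not hold either (log2 fold change -0.38 and -0.26). Cbx5 also lost its call with library totals (adjusted p = 0.0811), and Ehmt1 lost its call without D2 replicate 2 (log2 fold change 0.52).

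Zinc finger genes of the Zfp, Zscan and Rsl families, many of which encode repressors of transposable elements, had 287 tested anchors, of which 16 were higher and 27 lower (15.0%, against 14.3% of all). Zfp141 measured 127 and 152 CPM in D2 and 73.6 and 60.7 CPM in B6-13D2, and Zfp52 63.0 and 63.8 CPM against 28.3 and 23.4 CPM. Lower in D2 were Zfp984, at 88.8 and 106 CPM against 186 and 176 CPM, and Zfp27, at 168 and 173 CPM against 288 and 301 CPM. These genes sit in clusters of similar copies, and how reads were shared among copies was not tested.

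Of 78 anchors of ribosomal protein genes, 1 was higher (Rpl39l) and 3 were lower (Rpl28, Rps7 and Rpl38), 5.13% of them against 14.3% of all tested anchors. Rpl28 measured 202 and 235 CPM against 360 and 407 CPM. Without D2 replicate 1 the calls of Rps7, Rpl39l and Rpl38 did not hold (adjusted p = 0.0507, 0.0860 and 0.102), nor did those of Rpl39l and Rpl38 without B6-13D2 replicate 2 (0.101 and 0.461). Rpl38 also lost its call with library totals (0.0759). Of 14 anchors of imprinted genes 2 were called (14.3%). That of the maternally silenced Mest was higher, at 25.8 and 25.8 CPM against 13.8 and 13.1 CPM, and that of Plagl1, a growth regulator, lower, at 21.7 and 25.8 CPM against 39.0 and 41.1 CPM. Of 6 anchors of the H2 histocompatibility genes 2 were called, both higher in D2, against 5.97% of all. Those of the nonclassical class I genes H2-T24 and H2-T3 stood at 31.2 and 22.03 CPM against 9.44 and 11.2 CPM and 41.3 and 37.2 CPM against 15.1 and 24.8 CPM. The calls of Mest, Plagl1, H2-T24 and H2-T3 did not hold without D2 replicate 1 (adjusted p = 0.0920, 0.176, 0.0678 and 0.0697), where their log2 fold changes were 0.94, -0.64, 1.07 and 0.85 against 0.94, -0.76, 1.35 and 0.94 with all libraries. Of 4 Hox anchors and 2 anchors of germline and early cleavage genes, edgeR and DESeq2 called 0, and 0 had an unadjusted p under 0.05.

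**Figure D5:**
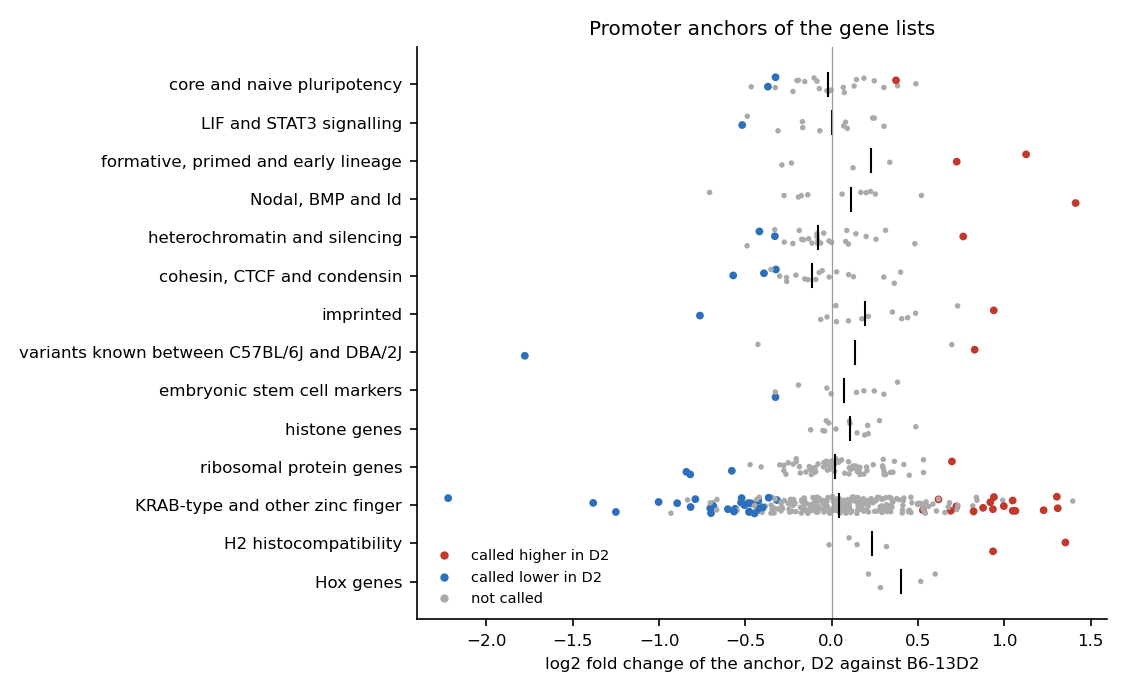
Log2 fold change (horizontal axis, D2 against B6-13D2) of each tested promoter anchor in the gene lists, 1 row per list, with red and blue points for anchors called higher and lower in D2, grey for those not called and a black bar at each list's median. Nnt lies at -1.78 among the known strain variants and Bmp4 at 1.41 among the Nodal and BMP genes, while the 14 histone anchors hold no call.

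In sequence, the median share of repeat-masked bases was 30.1% in anchors higher in D2 and 39.3% in the 154 of them changed at least 4-fold, against 29.4% in anchors lower in D2, 32.5% in the 43 of those changed at least 4-fold and 26.6% in all tested anchors. For anchors without a coding start the medians were 32.1%, 29.3% and 28.1% for higher, lower and all, and for anchors with a coding start 24.7%, 29.5% and 24.8%. Of anchors higher in D2, 41.4% had their midpoint inside a coding gene's body, against 64.7% of those lower and 56.3% of all. These are medians over anchors in the C57BL/6J reference, given as a description.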

How the data were processed

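The deposited table gives whole-number counts of read pairs per loop, not normalized, per the file headers and values. The submitters' processing notes name BWA 0.7.18, SAMtools 1.19.2, edgeR 3.34.1 and build mm10 (GRCm38), and the loop caller and the placing of reads with DBA/2J variants on that C57BL/6J assembly are not given in the sources used here. Read pairs carry no molecular identifiers, so intervals cover counting error only. Every per-sample column matched a sample (0 did not).

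An anchor's count is the sum over the loops that end in it, with a loop inside 1 anchor entered once. Loops and anchors past the minimum were tested with edgeR 4.0.16 in R 4.3.3 (quasi-likelihood test on all 8 libraries together, with TMM factors and a mean for each line), with Benjamini-Hochberg adjustment at 0.05. SE is the log2 fold change over the square root of F. The test was tested on simulated data made from these libraries. It recovered 53 of 100 anchors changed 2-fold and 91 of 100 changed 4-fold among 21211, with 9 false calls. For loops it recovered 26 and 78 of 100 among 44706, with 3 false calls. The changed anchors and loops were drawn only from those with a mean of at least 10 counts per library. Recovery at lower counts was not tested. Replicates differed by more than sampling noise (chi-square per degree of freedom 1.09 in D2 and 1.16 in B6-13D2) and were kept apart.

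Gene starts came from coding transcripts of GENCODE M21 (basic set), and coordinates are 1-based on GRCm38. Called features in which both libraries of a line exceeded both of the other were ranked by adjusted p, skipping any within 1 Mb of one named, to give 8 promoter anchors, 8 loops and 5 loops between anchors in each direction. Without that spacing, the smallest adjusted p gave 3 anchors in each direction at 55 to 75 Mb and in the interaction, and up to 4 per gene list. The members, lists and rules were chosen with earlier results of these data known. The values of 1 listed gene are not reported here. Alternatives covered scaling, filters, DESeq2 1.42.0, depth and each left-out library.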

Additional observations from a re-analysis of the deposited data

Results flagged for a closer look

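The difference in D2 against B6-13D2 departed from that in D2-13B6 against B6 at several named places, by the interaction of edgeR's quasi-likelihood test with Benjamini-Hochberg adjustment over all loops or anchors. Each value is the log2 fold change in D2 against B6-13D2 minus that in D2-13B6 against B6. With 1 line per genotype, the segment allele and a difference of a single line cannot be told apart. On chromosome 11 the loop from the Gm12092 anchor to Rtn4, a protein of the endoplasmic reticulum, gave -0.97 (SE 0.20, adjusted p = 0.000975), from -1.31 and -0.34, and the Gm12092 anchor itself -0.98 (SE 0.17, adjusted p = 2.06e-05). Chromosome 11 held more of the counts in D2-13B6 than in the other lines, and its part in these 2 values was not tested. Hunk gave 0.76 (SE 0.18, adjusted p = 0.00491) and Btn2a2 -0.72 (SE 0.18, adjusted p = 0.00778). Obox6 gave 1.06 (SE 0.22, adjusted p = 0.000769), from 1.38 and 0.32. Zfp729a, on chromosome 13, gave 0.77 (SE 0.23, adjusted p = 0.0282).

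On chromosome 19, 3 anchors were low in both lines of D2 against B6-13D2 and in D2-13B6, and high in B6. The anchor inside Ide, the insulin-degrading enzyme gene, measured 78.6 and 60.001 CPM in D2, 86.2 and 83.2 CPM in B6-13D2, 72.4 and 65.8 CPM in D2-13B6 and 212 and 204 CPM in B6, an interaction of 1.31 (SE 0.21, adjusted p = 4.85e-06). The anchor beside it, at chr19:37335001-37350000, gave 1.16 (SE 0.20, adjusted p = 3.98e-05). The anchor of Btaf1 and Fgfbp3 gave 1.06 (SE 0.19, adjusted p = 9.49e-05). The line B6 thus stood apart from the other 3 lines at these sites.

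The histone anchors named gave interactions of -2.01 at Hist1h1a and its neighbours (SE 0.20, adjusted p = 3.75e-12), -1.61 at Hist1h1d and its neighbours (SE 0.17, adjusted p = 2.55e-11) and -1.27 at Hist2h2aa1 and its neighbours (SE 0.16, adjusted p = 1.50e-08). In D2 against B6-13D2 their log2 fold changes were -0.12, -0.03 and 0.03.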

How the results depend on the processing

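For the named features, all 290 refits of 20 loops kept direction and call. Of 660 refits of 44 anchors, 628 kept both, 26 lost the call and 6 gained one. Of 838 refits of 56 list and Glo1 region anchors, 730 kept both, 82 lost the call and 26 gained one. None reversed a called value. The calls at Glo1, Wapl, Bmp4, Rpl28, Zfp141, Zfp984, Zfp52 and Zfp27 held in all 15 refits. Called loops numbered 1046 without loops inside 1 anchor, 857 with no filter, 429 with DESeq2, 914 at an FDR of 0.01 and 723 to 1200 with each library left out. Called anchors numbered 1134 with DESeq2, 1817 at an FDR of 0.01 and 1472 to 2679 with each library left out. The interaction called 271 loops, with 142 under library totals, 91 with the trend on abundance removed, 178 with the replicate block, 141 at an FDR of 0.01 and 91 to 235 with a library left out. It called 1025 anchors, with 372 after the trend was removed, 587 with DESeq2, 448 at an FDR of 0.01 and 247 to 954 with a library left out. Under library totals its split turned to 533 higher and 273 lower anchors. With a library left out, fewer libraries entered the fit. The cause of the other shifts was not tested. The difference in long contacts was 1.74 percentage points over 500 kb and 2.84 to 4.40 with a library left out. The called share at 55 to 75 Mb was 0.538% for loops, 1.90% at an FDR of 0.01 and 1.43% to 5.71% with a library left out. The same-sign share was 89.5% for loops and 84.6% to 92.0% with a library left out.

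Replicate numbers are shared only by name. The deviations of same-numbered libraries correlated at -0.11 over 8153 anchors, and a replicate block called 1418 loops and 2705 anchors. With the numbers of D2 crossed, an alternative chosen after seeing the data, 1449 loops and 2783 anchors were called. Median loop counts of 5 to 9 per library limit what single loops can show. Even among simulated loops with a mean of at least 10 counts, 26 of 100 changes of 2-fold were recovered.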
